A study of Mus musculus with 27 samples.

Results

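Transcripts of 10 genes of the colon lining were followed through immune cells sorted from inflamed colon of wild type (WT) and *Mbd2*-/- mice: the antimicrobial genes *Reg3b*, *Reg3g* and *Retnlb*, the structural genes *Krt8* and *Krt19*, the lectin gene *Lgals4*, the goblet cell genes *Muc2* and *Tff3*, the antibody transporter gene *Pigr* and the gut hormone gene *Gcg*. Their probes were found by symbol, and 13 of the 45281 probes on the array (10 of 30869 gene symbols) carried one of these names. The genes were selected on their levels in these immune sorts and on the *Gcg* difference in cDC1s, so levels are described here without a test. Labelled RNA was hybridised to Illumina MouseWG-6 BeadChips, on which a probe's brightness (intensity, in the scanner's arbitrary units) reports the amount of its transcript.

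The colon arrays held RNA from monocytes, macrophages or dendritic cells sorted by antibody from the lamina propria, the tissue beneath the epithelium, of mice given 2% dextran sulphate sodium (DSS), which injures the epithelium and causes colitis. There were 5 WT and 5 *Mbd2*-/- arrays of Ly6C+ monocytes, 5 and 5 of F4/80+ macrophages, and 2 and 3 of CD11b- dendritic cells, sorted in the study as CD103+ cDC1s. A further array of each genotype held splenic CD4+ T cells taken 6 weeks after T cell transfer, and these served as a population from outside the gut. The *Mbd2*-/- mice were C57BL/6 mice lacking *Mbd2*, a reader of methylated CpG sites, in every cell, so that a difference between genotypes may arise in any tissue of the animal. An array could hold RNA pooled from several mice, and ages were matched between genotypes within the range the study used. Sorted epithelial cells were not analysed here.

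The colon epithelium is a single layer of absorptive cells, mucus-making goblet cells and hormone-making enteroendocrine cells. *Reg3b* and *Reg3g* encode secreted lectins that bind and kill bacteria, *Retnlb* encodes RELM-beta, a goblet cell protein with antimicrobial action, and all 3 are well known to be induced in gut epithelium by microbes and inflammation. *Muc2* encodes the gel-forming mucin of the mucus layer and *Tff3* a trefoil peptide secreted with it. *Krt8* and *Krt19* are keratins, the intermediate filaments of epithelial cells, *Lgals4* is galectin-4 of the intestinal epithelium, *Pigr* carries IgA and IgM across the epithelium, and *Gcg* encodes proglucagon, the precursor of GLP-1 in enteroendocrine L cells.

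Because *Mbd2* encodes a protein that binds methylated CpG, the stretch before the transcription start is shown for the gene pair with the largest shared difference between genotypes and for *Krt8*, a structural gene without one. The sequences are from RefSeq (GRCm38.p6), 250 bases ending just before the start, read 5′ to 3′ on the strand of the gene, with CpG in capitals. *Reg3b* lies at chr6:78370635-78370884 on the plus strand, *Reg3g* at chr6:78468875-78469124 on the minus strand and *Krt8* at chr15:102004343-102004592 on the minus strand.
Reg3b: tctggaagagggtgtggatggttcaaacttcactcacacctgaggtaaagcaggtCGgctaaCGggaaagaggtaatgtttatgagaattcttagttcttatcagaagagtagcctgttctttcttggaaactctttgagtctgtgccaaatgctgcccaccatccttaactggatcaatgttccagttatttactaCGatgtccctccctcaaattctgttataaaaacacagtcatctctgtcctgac
Reg3g: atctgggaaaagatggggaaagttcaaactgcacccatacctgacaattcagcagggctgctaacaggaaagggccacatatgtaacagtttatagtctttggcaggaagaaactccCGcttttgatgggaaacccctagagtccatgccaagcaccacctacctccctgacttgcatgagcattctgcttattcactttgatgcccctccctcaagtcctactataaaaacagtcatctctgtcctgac
Krt8: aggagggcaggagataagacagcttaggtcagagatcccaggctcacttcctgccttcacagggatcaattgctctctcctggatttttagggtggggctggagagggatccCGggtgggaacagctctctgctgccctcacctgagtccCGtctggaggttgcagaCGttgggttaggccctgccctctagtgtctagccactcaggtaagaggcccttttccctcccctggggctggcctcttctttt
These stretches held 3, 1 and 3 CpG respectively, against a median of 6 over the 32851 promoters of the table. The 4 other members with a promoter in the table held 2 (*Lgals4*), 4 (*Muc2*), 7 (*Gcg*) and 4 (*Pigr*). *Reg3b* and *Reg3g* both lie on chromosome 6 and were the most alike of the 21 pairs, with 68.9% identity (175 of 254 aligned columns) where the next pair, *Reg3b* and *Muc2*, had 54%. Both end in the same run of 20 bases, acagtcatctctgtcctgac. The only motif searched was TTCNNNGAA, the core bound by STAT factors, which reads the same on both strands. It occurred once in *Reg3b*, as ttcttggaa, starting 129 bases before the start, in none of the other 6 members and in 7.02% of all promoters. Methylation of these sites was not measured on these arrays.

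All 10 genes were detected on each of the 25 colon arrays by their brightest probe (detection p-value below 0.05), in monocytes, macrophages and cDC1s of both genotypes. In deposited intensity, *Reg3b* had a median of 3556 in WT monocytes, 3012 in WT macrophages and 2097 in WT cDC1s, against 86.0 in the WT T cell array. *Krt8* spanned 866 to 5600 over the colon arrays and read 84.2 and 81.5 on the 2 T cell arrays, where it was not detected. The T cell arrays were at background for 8 genes and detected *Lgals4*, at 138 (WT) and 106 (*Mbd2*-/-), and *Gcg*. For 9 of the 10 genes each colon array lay above both T cell arrays in normalised log2 intensity, and *Gcg* was the exception.

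**Figure D1:**
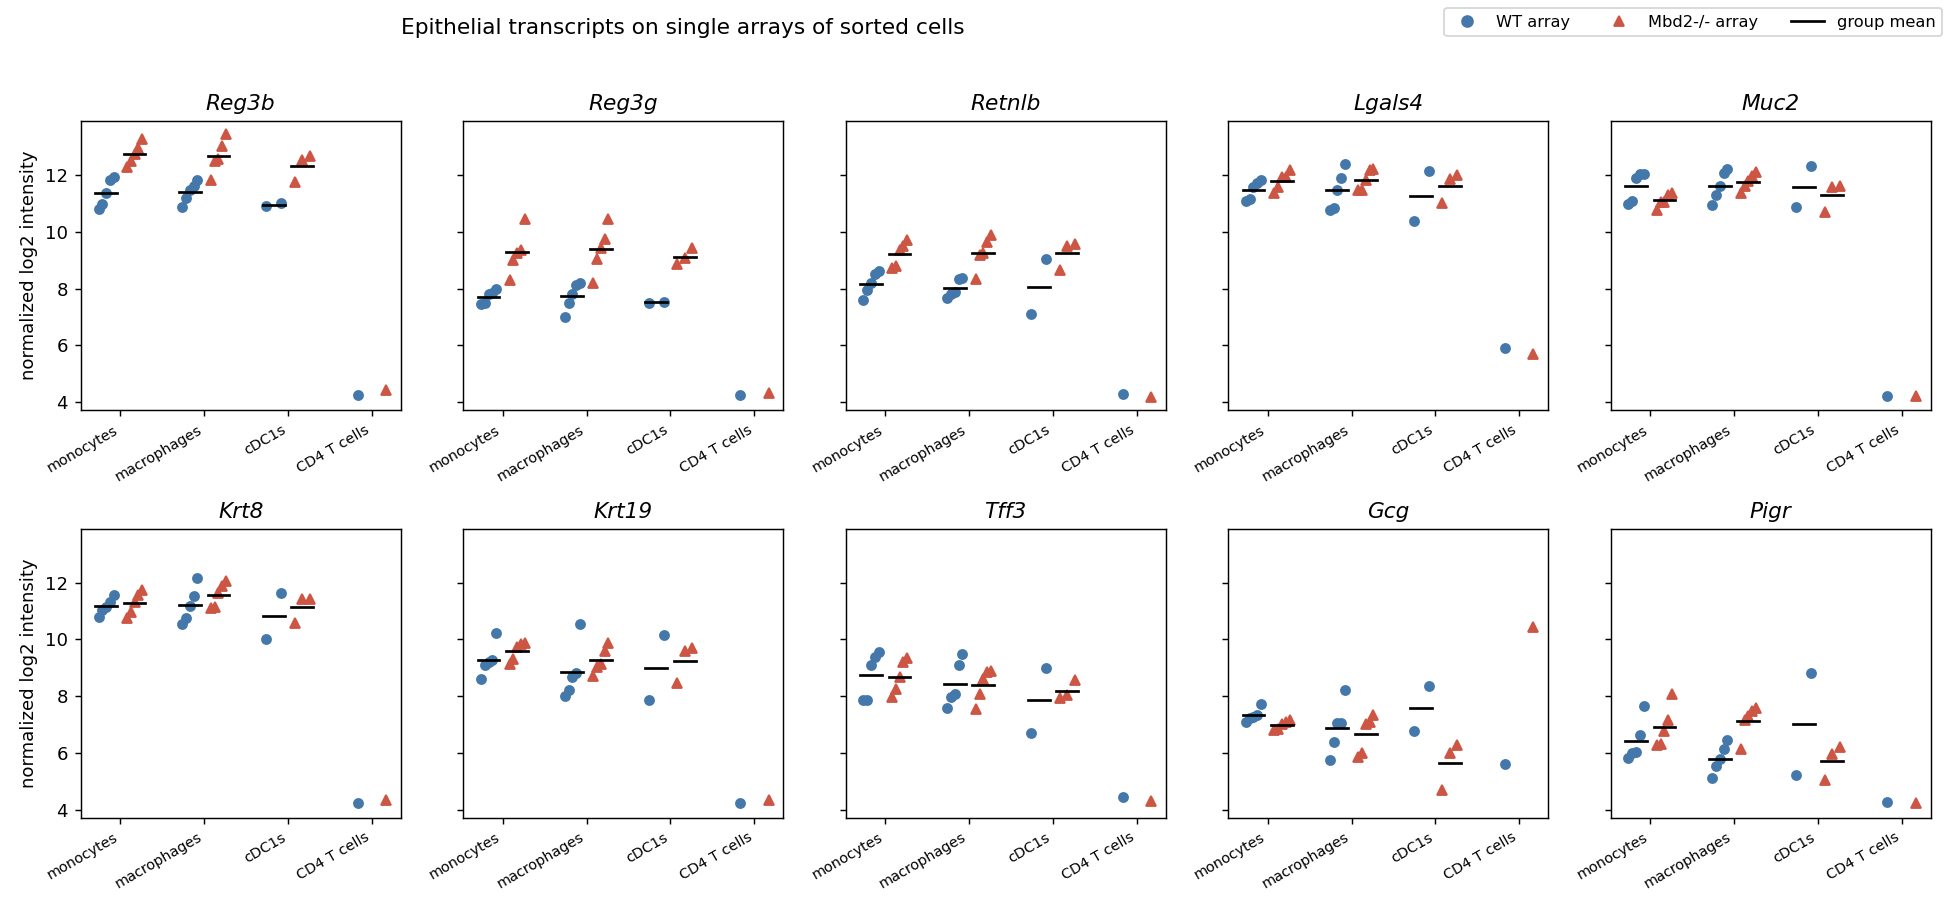
Normalised log2 intensity (vertical axis) of the brightest probe of each of the 10 genes on each of the 27 arrays, by cell type and genotype, 1 point per array; bars show group means. The colon arrays lie above the 2 T cell arrays for all genes but *Gcg*, and *Reg3b* and *Reg3g* lie higher in *Mbd2*-/- than in WT monocytes.

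By summed level the sorts carried the markers of their labels. Over 9 cDC1 markers the summed linear level ran from 13260 to 15102 in the cDC1 arrays and 1140 to 2312 in monocytes and macrophages, 9 macrophage markers summed to 40249 to 48595 in macrophages, 7 monocyte markers to 16441 to 28197 in monocytes, and 8 T cell markers to 32619 to 33139 in the T cell arrays. The macrophage markers also summed to 19906 to 24975 in the monocyte arrays. T cell markers summed to 711 to 3006 in WT and 472 to 2634 in *Mbd2*-/- cDC1 arrays, against 319 to 707 in monocytes and macrophages. The brightest cDC1 marker in the cDC1s was *Itgae*, the gene of CD103, at a mean log2 level of 13.13 in WT. It read 10.58 on the WT T cell array. Not every marker was seen: *Ccr2* of the monocyte list was detected on 3 and *Flt3* of the cDC1 list on 7 of the 25 colon arrays. Mean intensity per array ran from 172 to 353 and 16024 to 18608 probes were detected. The *Mbd2* probe was detected on 0 of 27 arrays, so the genotype labels could not be checked by the deleted gene. Besides the 10 genes, 19 of 27 structural and absorptive epithelial genes on the array were detected on all 25 colon arrays, as were 8 of 8 stromal genes such as collagens. Fewer cells of a type and less RNA per cell cannot be told apart in such bulk samples.

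Within a genotype, the 3 colon sorts carried the 10 genes at similar levels. In WT arrays the log2 difference of macrophages from monocytes was between -0.63 (SE 0.52, *Pigr*) and 0.05 (SE 0.32, *Krt8*), and that of cDC1s from macrophages between -0.59 (SE 0.61, *Tff3*) and 1.23 (SE 0.69, *Pigr*). *Muc2* was 0.65 (SE 0.29) higher in *Mbd2*-/- macrophages than in *Mbd2*-/- monocytes, and *Gcg* 1.01 lower in cDC1s than in macrophages of that genotype (difference -1.01, SE 0.46). Of the 60 differences between pairs of sorts of 1 genotype, 4 were over 2 SE: these 2, *Gcg* in cDC1s against monocytes (-1.32, SE 0.46) and *Pigr* in cDC1s against macrophages (-1.41, SE 0.61), all in *Mbd2*-/- arrays. The other sorts did not differ beyond that spread, so no order of the 3 sorts is given. Levels of different genes were not set against each other, since probes differ in brightness.

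*Reg3b* and *Reg3g* were higher in *Mbd2*-/- than in WT monocytes and macrophages, and *Retnlb* was higher in *Mbd2*-/- macrophages. The question of this comparison is whether a sort from *Mbd2*-/- colon carried more or less of each transcript than the same sort from WT colon. A gene was called when limma's adjusted p-value over all probes tested was below 0.05 and the log2 difference was at least 1. The list was drawn up with levels in these sorts known, so the calls are not independent support for a choice of these genes.

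For *Reg3b* in monocytes, WT arrays 1 to 5 read 11.41, 11.02, 10.86, 11.86 and 11.96 in normalised log2 intensity, and *Mbd2*-/- arrays 6 to 10 read 12.99, 12.34, 12.77, 13.30 and 12.53. Each *Mbd2*-/- array lay above the highest WT array. The mean log2 difference was 1.36 (SE 0.27, n = 5 and 5, 2.57-fold, limma adjusted p = 0.00855). In macrophages, WT arrays 11 to 15 read 11.87, 11.24, 10.90, 11.66 and 11.50, and *Mbd2*-/- arrays 16 to 20 read 13.04, 11.87, 12.59, 13.45 and 12.53. The groups touched without overlap, array 17 (*Mbd2*-/-) lying just above array 11 (WT). The difference was 1.26 (SE 0.27, 2.40-fold, limma adjusted p = 0.0120). A second, dimmer *Reg3b* probe differed by 1.25 in monocytes (limma adjusted p = 0.0634) and 1.06 in macrophages (limma adjusted p = 0.0667), in the same direction but outside the threshold.

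*Reg3g*, on the same chromosome, ran in parallel, though probe sequences were not used here and cross-hybridisation between the probes of these similar genes was not checked. In monocytes WT arrays 1 to 5 read 7.83, 8.00, 7.50, 7.46 and 7.88, against 9.38, 8.34, 9.29, 10.51 and 9.05 on *Mbd2*-/- arrays 6 to 10. The groups did not overlap, and the difference was 1.58 (SE 0.35, 2.99-fold, limma adjusted p = 0.0175). Without WT array 3 or without *Mbd2*-/- array 9 the adjusted p was 0.0577 or 0.0598 and the gene was no longer called. In macrophages WT arrays 11 to 15 read 8.23, 7.51, 7.01, 7.82 and 8.17, and *Mbd2*-/- arrays 16 to 20 read 9.80, 8.22, 9.47, 10.50 and 9.08. Array 17 fell just below the highest WT array here, and the other 4 *Mbd2*-/- arrays lay above all WT arrays. The difference was 1.67 (SE 0.35, 3.17-fold, limma adjusted p = 0.0101).

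*Retnlb*, the goblet cell product, read 8.65, 8.53, 7.62, 8.22 and 7.99 on the WT monocyte arrays and 9.40, 8.76, 9.55, 9.73 and 8.84 on the *Mbd2*-/- monocyte arrays. These groups did not overlap, yet the difference of 1.05 (SE 0.33) had a limma adjusted p of 0.109. In macrophages the WT arrays read 8.40, 8.35, 7.82, 7.90 and 7.69 and the *Mbd2*-/- arrays 9.67, 8.35, 9.22, 9.91 and 9.30. Array 17 lay among the WT arrays and the rest above them. The difference was 1.25 (SE 0.32, 2.39-fold, limma adjusted p = 0.0287), and it lost its call in 6 of the 10 fits that left out 1 macrophage array (those without WT array 12, 13 or 14 or *Mbd2*-/- array 16, 19 or 20), with an adjusted p of up to 0.0872.

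The structural and goblet cell genes were not called in either sort. *Lgals4* ranged from 10.83 to 12.42 over WT and from 11.43 to 12.24 over *Mbd2*-/- monocytes and macrophages, and its differences were 0.34 (SE 0.31) and 0.35 (SE 0.31). *Krt8* differed by 0.09 (SE 0.31) and 0.35 (SE 0.31), and *Krt19* by 0.30 (SE 0.43) and 0.42 (SE 0.43). For both keratins the genotypes overlapped over most of their range. *Muc2* differed by -0.49 (SE 0.28) in monocytes and 0.14 (SE 0.28) in macrophages, and *Tff3* by -0.07 (SE 0.45) and -0.05 (SE 0.45). The mucin thus had the lower mean in *Mbd2*-/- monocytes, where *Reg3b* was higher, without passing the test (limma adjusted p = 0.474).

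*Pigr* and *Gcg* were dimmer. *Pigr* in macrophages read 6.47, 5.12, 5.78, 5.56 and 6.13 on WT arrays 11 to 15 and 7.60, 6.13, 7.19, 7.50 and 7.33 on *Mbd2*-/- arrays 16 to 20. All but array 17 lay above the WT arrays, and the difference of 1.34 (SE 0.51) did not pass the test (limma adjusted p = 0.112). In monocytes *Pigr* differed by 0.50 (SE 0.51), with array 1 highest in WT and array 9 highest in *Mbd2*-/-. *Gcg* differed by -0.36 (SE 0.39) in monocytes and -0.22 (SE 0.39) in macrophages, with overlapping groups.

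Of the 10 genes, 2 were called in monocytes, where 0.426% of 16190 probes tested were called in either direction, and 3 in macrophages, where 1.51% of 16834 were. The groups did not overlap for 3 genes in monocytes, against 4.85% of probes, and for 1 gene in macrophages, against 5.29%. The median difference over the 10 genes was 0.32 in monocytes and 0.38 in macrophages, and -0.02 and -0.07 over all probes tested. The difference of the genotype effect between macrophages and monocytes was called for 0 of the 10 genes and for 0.0128% of 15626 probes (2 probes), while 1110 probes had an unadjusted p below 0.05 and no member did. For the 10 genes it lay between -0.10 (SE 0.38, *Reg3b*) and 0.84 (SE 0.72, *Pigr*), with standard errors of up to 0.72. The 2 sorts may not be independent of each other, since several members read alike on monocyte array n and macrophage array n + 10 (arrays 9 and 19 had the highest *Reg3g* value of their sorts), although no label pairs them. With these arrays paired, a choice made after the values were seen, *Muc2* read 0.53 to 0.75 higher on the macrophage than on the monocyte array of the 5 *Mbd2*-/- pairs and -0.30 to 0.32 higher in the 5 WT pairs. These ranges did not overlap, but the share of all probes whose ranges lay apart in this way was not counted. *Muc2* was named after its values were seen, with the smallest unadjusted p of the 10 genes, so nothing is read from the ranges. The difference of 0.63 (SE 0.14) had a limma adjusted p of 0.296 in the paired fit, in which 1 of 15626 probes and no member was called.

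**Figure D2:**
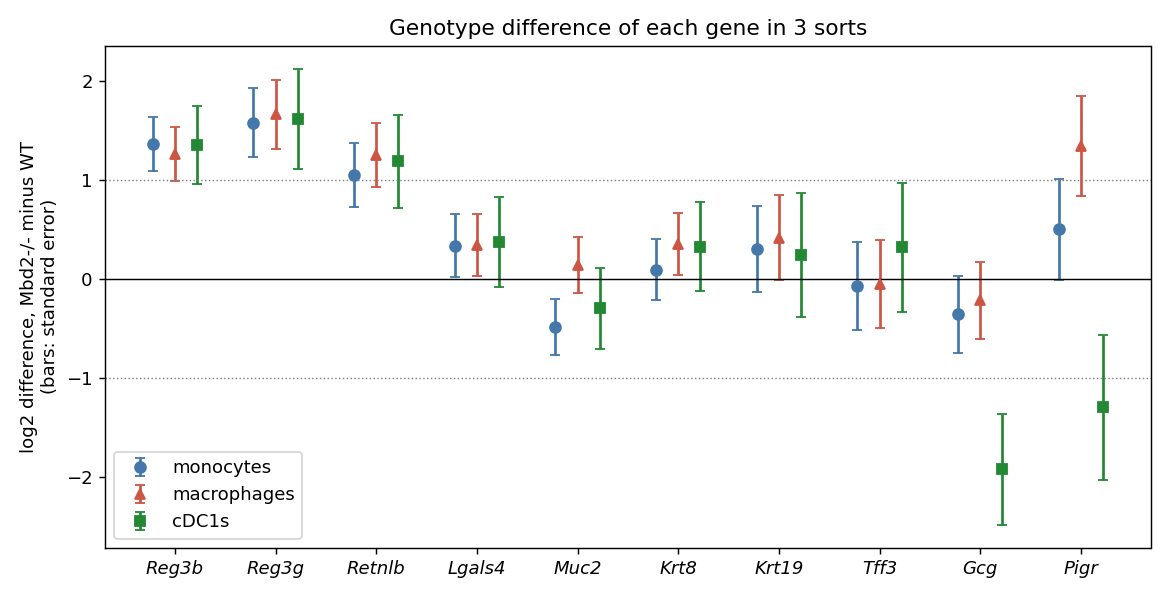
Log2 difference of *Mbd2*-/- minus WT (vertical axis) for each gene in monocytes, macrophages and cDC1s; bars are the standard error of the limma fit and dotted lines mark a log2 difference of 1 in either direction. *Reg3b*, *Reg3g* and *Retnlb* lie between 1.05 and 1.67 in all 3 sorts, while *Lgals4*, *Krt8* and *Krt19* lie between 0.09 and 0.42.

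These calls depended on the scaling of the arrays. With each array scaled to its median in place of quantile normalisation, 0 of the 10 genes were called in either sort: *Reg3b* differed by 1.09 (limma adjusted p = 0.112) in monocytes and 1.15 (adjusted p = 0.0621) in macrophages, *Reg3g* by 1.30 (adjusted p = 0.164) and 1.58 (adjusted p = 0.0621), and *Retnlb* by 1.16 in macrophages (adjusted p = 0.0991). Median scaling moved the median difference of all probes tested to -0.26 in monocytes. Fitted on macrophages alone, the 3 macrophage calls were also lost, at adjusted p-values of 0.0753, 0.0829 and 0.0726.

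The order in which the arrays were listed was taken in blocks of 6, the number a slide of this type holds, and 2 blocks held both genotypes of each of these sorts (3 WT and 2 *Mbd2*-/- arrays in the earlier, 2 and 3 in the later). No label names these blocks as a batch. In monocytes *Reg3b* differed by 1.81 and 0.79 within the 2 blocks, and in macrophages by 1.65 and 0.92. *Reg3g* differed by 2.00 and 1.33 and by 2.21 and 1.17, and *Retnlb* by 1.02 and 1.13 and by 1.41 and 1.28. All 12 of these values were above 0. *Pigr* was above 0 in all 4 block comparisons too, at 0.87 and 0.53 in monocytes and 1.63 and 1.13 in macrophages. So was *Krt19*, at 0.006 to 1.09. *Krt8* in macrophages differed by -0.01 in the earlier block and 0.92 in the later, and the goblet cell gene *Tff3* in monocytes by -0.63 and 0.80. With the listing block in the fit *Pigr* was also called in macrophages (difference 1.38, limma adjusted p = 0.0476).

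In cDC1s the same 3 antimicrobial genes had higher means in *Mbd2*-/- arrays, and *Gcg* and *Pigr* lower ones. The 10 genes had been chosen with a cDC1 result in view, so differences are given with their error and no p-value. *Reg3b* read 11.07 and 10.94 on WT arrays 23 and 26 and 12.69, 12.57 and 11.81 on *Mbd2*-/- arrays 27, 28 and 30. *Reg3g* read 7.56 and 7.53 against 9.45, 8.91 and 9.12. For both genes the genotypes did not overlap, with differences of 1.35 (SE 0.39) and 1.62 (SE 0.50). *Retnlb* read 9.07 and 7.10 against 8.67, 9.54 and 9.62, so that array 23 lay within the *Mbd2*-/- range. Its difference of 1.19 (SE 0.47) ran from 0.21 to 2.18 when 1 array was left out.

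*Gcg* read 8.40 and 6.79 on the WT cDC1 arrays and 6.02, 6.29 and 4.69 on the *Mbd2*-/- ones, at the edge of detection on array 30 (detection p-value 0.0417). *Pigr* read 8.86 and 5.22 against 6.20, 5.98 and 5.04. Array 23 was thus the high array for both genes, and the difference of *Pigr*, -1.30 (SE 0.73), turned to 0.52 without it. *Lgals4* showed the same split of the WT arrays, at 12.17 and 10.42. Its difference was 0.37 (SE 0.45), beside -0.30 (SE 0.41) for *Muc2*, 0.33 (SE 0.45) for *Krt8*, 0.24 (SE 0.62) for *Krt19* and 0.32 (SE 0.65) for *Tff3*, and all 5 changed sign in at least 1 of the 5 fits that left out an array. Besides *Gcg*, whose difference here chose it, *Reg3b* was the 1 gene of the other 9 past the calling rule, where 1.93% of 17838 probes were, and nothing is read from that count. Of the 10 genes 3 did not overlap between genotypes, where 31.8% of probes did not. The median over the 10 genes was 0.32, against 0.03 over all probes, and leaving out 1 array changed which genes were called: *Retnlb* without WT array 23, *Pigr* without WT array 26, and *Reg3b* without *Mbd2*-/- array 30. The markers of other cells moved in this sort as well: 9 of 9 macrophage markers (median 0.68) and 5 of 5 monocyte markers tested (median 0.67) had higher means in *Mbd2*-/- arrays and 7 of 8 stromal markers lower ones (median -0.74), none of them called. Their part in the cDC1 differences was not tested. No listing block held cDC1s of both genotypes, so the order of listing and genotype cannot be told apart in this sort.

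The splenic T cell array of *Mbd2*-/- mice carried *Gcg* at an intensity of 747, against 123 in the WT array, with normalised log2 values of 10.44 and 5.60. This was the highest *Gcg* value on the 27 arrays. There was 1 array per genotype, so the difference has no replicate check and no test. The other gut hormone genes did not share it: of 14 enteroendocrine genes, 0 were detected on the WT and 1 on the *Mbd2*-/- T cell array, and their summed linear level was 272 and 281.

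The other epithelial genes were described from 4 lists. Among structural and absorptive genes such as *Cdh1* (E-cadherin), *Vil1* (villin), *Krt20* and *Cdx2*, 0 of 25 tested were called in monocytes and 0 of 24 in macrophages and in cDC1s, with median differences of 0.17, 0.03 and 0.07. Among goblet cell genes such as *Spink4* and *Muc13*, 0 of 8 tested were called in any of the 3 sorts, with medians of 0.22, 0.11 and 0.29. The medians over all probes tested in each sort were -0.02, -0.07 and 0.03. Both lists lay above these in every sort, the goblet cell list by more. Single genes spread more widely. Structural differences ran from -0.47 to 0.81, -0.57 to 1.20 and -1.60 to 0.79 in monocytes, macrophages and cDC1s. Those of goblet cell genes ran from -0.13 to 0.29, -0.02 to 1.34 and -1.02 to 0.74. The summed linear level of the structural list overlapped between genotypes, from 4518 to 11913 over WT monocytes against 5664 to 10894 over *Mbd2*-/- ones, and from 3739 to 14215 against 5164 to 11113 over macrophages.

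The antimicrobial list, which holds genes that myeloid cells also make, had higher and the enteroendocrine list lower medians in *Mbd2*-/- arrays. Of the antimicrobial list 9, 11 and 10 genes were tested in monocytes, macrophages and cDC1s, with medians of 0.73, 0.65 and 1.06. The called gene was *Lyz1* (lysozyme) in monocytes, and *Lyz1*, *Lcn2*, *Saa3*, *S100a8* and *S100a9* of this list are also made by myeloid cells. These genes differed by 0.62 to 2.03 in monocytes, 0.65 to 1.24 in macrophages and 0.11 to 1.64 in cDC1s. The list median in monocytes and in macrophages was the value of *Saa3*, and no median was taken without these genes. *Duoxa2*, the maturation factor of a peroxide-making oxidase of epithelium, differed by 0.87 (SE 0.30), 0.81 (SE 0.30) and 1.17 (SE 0.43) in the 3 sorts, with limma adjusted p-values of 0.157, 0.104 and 0.09998, and was picked out after its values were seen. Genes of the list that differed less included *Ang4* (0.01, 0.07 and -0.39) and *Saa1* (-0.01, 0.16 and 0.12) in the 3 sorts, and, in macrophages, *Reg1* (0.15), *Reg4* (0.02) and *Pla2g2a* (0.08). Of the enteroendocrine list 6, 5 and 4 genes were tested, with medians of -0.60, -0.62 and -1.28. *Pyy*, the peptide YY hormone made in the same L cells as *Gcg*, was called in cDC1s, with a mean of 7.52 in WT and 5.54 in *Mbd2*-/- arrays (difference -1.98, SE 0.60, limma adjusted p = 0.0482). It lost this call with an offset of 50, cyclic loess, no background correction, median scaling, no filter, separate fits or array weights.

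**Figure D3:**
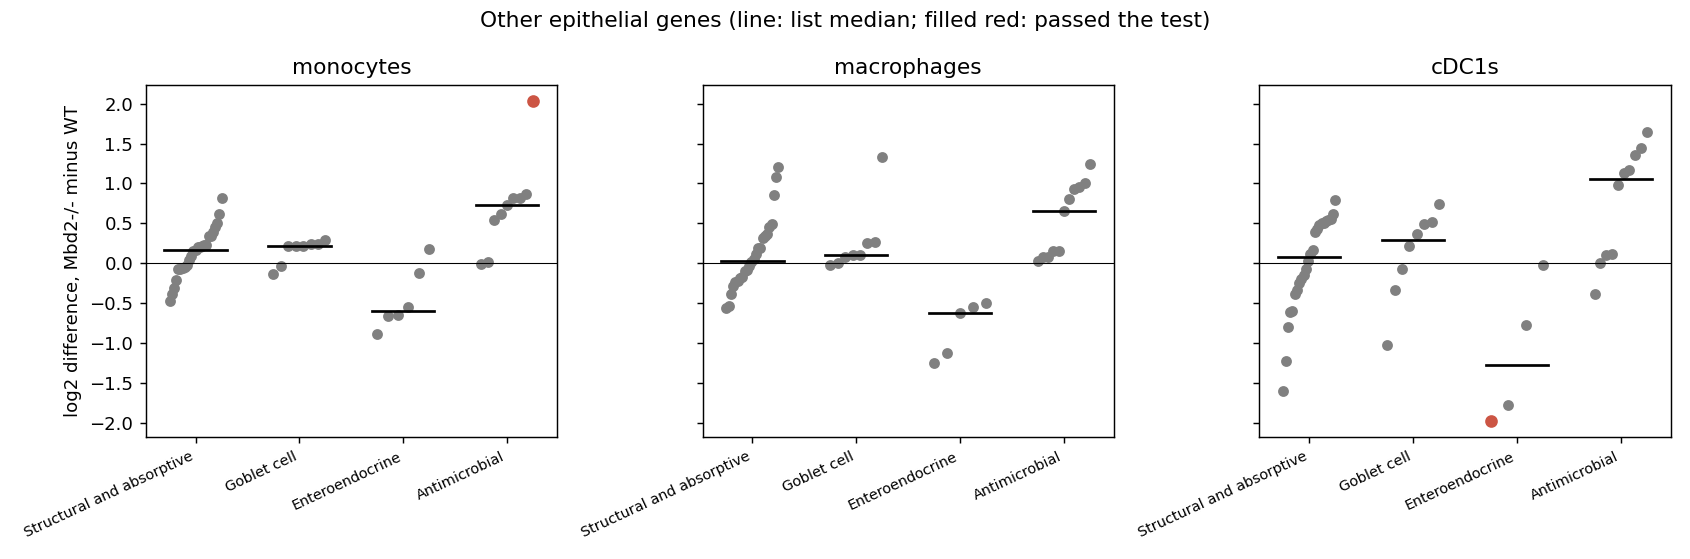
Log2 difference of *Mbd2*-/- minus WT (vertical axis) for the other epithelial genes that were tested, 1 point per gene, by list (horizontal axis) in monocytes, macrophages and cDC1s; lines are list medians and red points were called. *Lyz1* in monocytes and *Pyy* in cDC1s are the 2 called genes, and the structural and goblet cell medians lie between 0.03 and 0.29.

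Neutrophil markers had higher median sums in the *Mbd2*-/- arrays of each colon sort. The brightest of them in monocytes and cDC1s, *S100a8* and *S100a9*, are also in the antimicrobial list, so this is not a separate observation. The summed level of 8 neutrophil markers, which include *S100a8* and *S100a9*, ran in WT arrays from 2516 to 8205 in monocytes, from 1052 to 2806 in macrophages and from 683 to 781 in cDC1s. On the *Mbd2*-/- arrays it ran from 6693 to 9012, from 1613 to 6186 and from 1164 to 2899. By gene, 6 of 6, 3 of 4 and 4 of 5 tested had higher means in *Mbd2*-/- monocytes, macrophages and cDC1s. Of these 1 was called, in cDC1s. *Retnlg* had the lower mean in *Mbd2*-/- macrophages, at 8.71 against 9.29 in WT. The part of these markers in the antimicrobial differences was not tested. On the T cell arrays, 1 per genotype, the same sum was 24774 in WT and 5756 in *Mbd2*-/-. These splenic arrays thus held neutrophil transcripts as well, the WT array more than any colon array, and differed in the other direction. Stromal markers had lower means in *Mbd2*-/- arrays for 8 of 8 genes in monocytes, 6 of 8 in macrophages and 7 of 8 in cDC1s, with medians of -0.17, -0.31 and -0.74 and none called, and their sums overlapped in monocytes, at 1985 to 4026 in WT and 1636 to 4826 in *Mbd2*-/- arrays.

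Most of the 10 genes varied together among arrays of the same cell type and genotype. How far *Reg3b* and *Reg3g* shared in this differed between the 25 colon arrays and the 20 monocyte and macrophage arrays taken within listing blocks. After each group's mean was taken off, Pearson's r over the 25 colon arrays was 0.97 for *Lgals4* and *Krt8*, 0.92 for *Lgals4* and *Krt19* and 0.91 for *Lgals4* and *Muc2*. Structural and goblet cell genes thus varied together from array to array. *Reg3b* went with *Reg3g* (r = 0.75) and less with *Muc2* (r = 0.15). When the mean of each listing block within a group was taken off instead, over the 20 monocyte and macrophage arrays, r was 0.93 for *Reg3b* and *Reg3g*, 0.77 for *Reg3b* and *Muc2*, 0.95 for *Reg3b* and *Krt8* and 0.96 for *Lgals4* and *Krt8*. These values describe arrays that share a normalisation and a scanner, and no p-value is given for them. The second set of values left out the cDC1s as well as taking off block means. Which of these steps changed r was not tested.

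**Figure D4:**
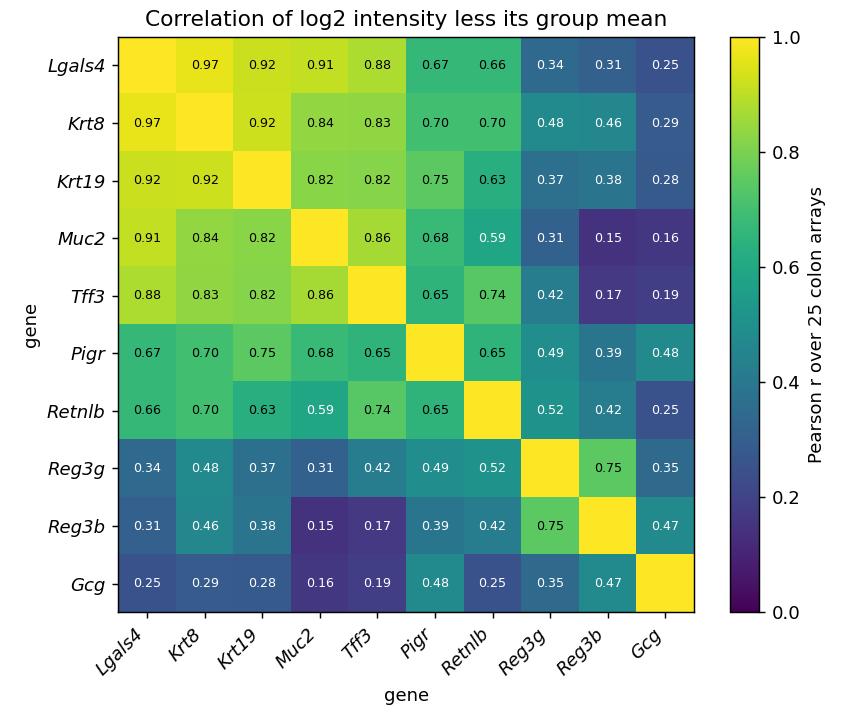
Pearson's r between each pair of the 10 genes (both axes) of normalised log2 intensity less its group mean over the 25 colon arrays, with colour from 0 to 1. The upper left block of *Lgals4*, *Krt8*, *Krt19*, *Muc2* and *Tff3* lies between 0.82 and 0.97, and *Reg3b* and *Reg3g* correlate at 0.75.

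The genes most like each member were sought among 16127 probes of 11960 genes by the same measure, over the same 25 arrays. *Lgals4* was most like *Nme7* (r = 0.99) and *Akr1c19* (r = 0.99), *Krt8* most like *Dmbt1* (r = 0.98), *Krt19* most like *Atad4* (r = 0.97), *Muc2* most like *Ckmt1* (r = 0.95) and *Tff3* most like *Muc13* (r = 0.94). Those values are near the top of the scale. *Reg3b* was most like *Samd9l* (r = 0.80), *Reg3g* most like *Mal* (r = 0.88), *Retnlb* most like *Pglyrp1* (r = 0.85), *Pigr* most like *BC040758* (r = 0.87) and *Gcg* most like *LOC232060* (r = 0.82).

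*Reg3b* followed the structural epithelial genes in *Mbd2*-/- arrays, and in WT monocytes and macrophages within the listing blocks, but not over all WT arrays. The structural level of an array was taken as the mean log2 level of 25 structural genes, members left out. It averaged 7.22 ± 0.40 (SD, n = 5) over WT monocytes, 7.35 ± 0.36 (n = 5) over *Mbd2*-/- monocytes, 7.14 ± 0.61 (n = 5) and 7.29 ± 0.36 (n = 5) over the macrophages of the 2 genotypes and 7.09 ± 1.03 (n = 2) and 7.05 ± 0.38 (n = 3) over their cDC1s. The genotypes overlapped in every sort. Over the 13 *Mbd2*-/- colon arrays r of *Reg3b* with this level, group means removed, was 0.96 (rho 0.99), and without the 2 arrays of the most extreme structural level it was 0.94. Over the 12 WT arrays r was -0.08 (rho -0.15), and -0.41 without 2 arrays. *Reg3g* had r of 0.84 in *Mbd2*-/- and 0.14 in WT arrays. *Krt8*, by contrast, had r of 0.96 in both genotypes, and *Lgals4*, *Muc2*, *Krt19* and *Tff3* had r between 0.82 and 0.98 in each.

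In WT monocytes and macrophages the listing blocks stood apart. WT monocyte arrays 1 to 3, with structural levels of 7.78, 7.26 and 7.38, had the lower *Reg3b* values (11.41, 11.02 and 10.86), and arrays 4 and 5, with levels of 6.75 and 6.93, the higher (11.86 and 11.96). The first 3 lie in 1 listing block and the other 2 in the next. In macrophages arrays 11 to 13 had structural levels of 8.05, 7.32 and 7.14, and arrays 14 and 15, of the later block, 6.53 and 6.65, with *Reg3b* values in between those of the others. Within group and block, r of *Reg3b* with the structural level over the 20 monocyte and macrophage arrays was 0.93 in WT (n = 10) and 0.97 in *Mbd2*-/- arrays (n = 10), and that of *Reg3g* 0.77 and 0.99. In a fit with a slope on the structural level for each genotype, chosen after these values were seen, the slope of *Reg3b* was -0.06 (SE 0.17) in WT and 1.30 (SE 0.26) in *Mbd2*-/- arrays, a difference of 1.36 (SE 0.31), with a limma adjusted p of 0.570. *Reg3g* had slopes of 0.09 (SE 0.21) and 1.70 (SE 0.33) and the same adjusted p. Neither passed the threshold, nor did any probe: 0% of 16102 were called by limma, and 1089 had an unadjusted p below 0.05. With a mean for each block within a group, over monocytes and macrophages, the slopes of *Reg3b* were 0.94 (SE 0.19) and 1.25 (SE 0.15), a difference of 0.31 (SE 0.25, limma adjusted p = 0.666), and those of *Reg3g* 0.98 (SE 0.27) and 2.02 (SE 0.22, adjusted p of the difference 0.573). Here too 0% of probes were called, and 1392 had an unadjusted p below 0.05. The flat slope of *Reg3b* over all WT arrays was thus not retained over WT monocytes and macrophages within blocks. The fit within blocks also left out the cDC1s. There WT arrays 23 and 26 had structural levels of 7.82 and 6.36, with *Reg3b* at 11.07 and 10.94. No fit without blocks was made on the same 20 arrays, so the blocks and the cDC1s cannot be told apart here.

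**Figure D5:**
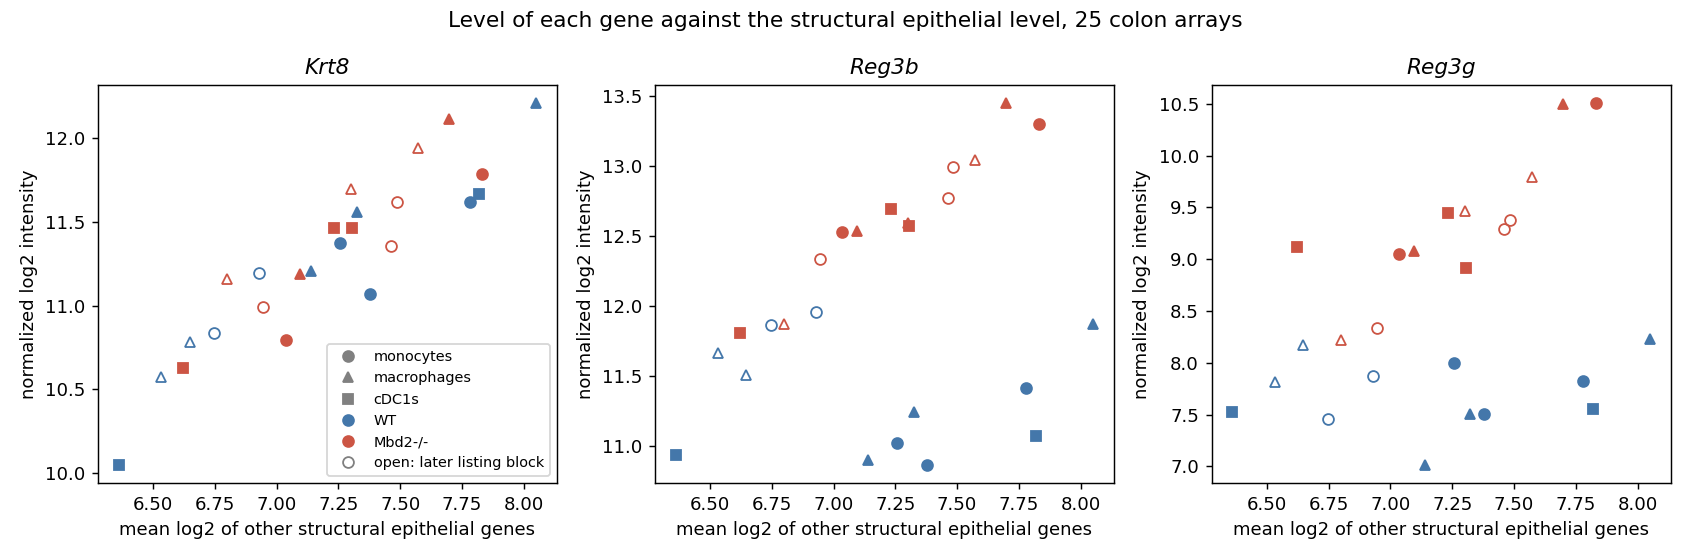
Normalised log2 intensity (vertical axes) of *Krt8*, *Reg3b* and *Reg3g* against the mean log2 level of 25 other structural epithelial genes (horizontal axes) on the 25 colon arrays, 1 point per array, with shape for cell type, colour for genotype and open symbols for the later listing block of monocytes and macrophages. The *Krt8* points of both genotypes lie along 1 band, while the WT monocyte and macrophage points of *Reg3b* fall into the 2 listing blocks. Its r was -0.08 over all WT arrays, cDC1s included, and 0.93 within blocks without the cDC1s.

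With the structural level as a covariate, 1 slope for all arrays, *Reg3b*, *Reg3g* and *Retnlb* kept their calls in macrophages. There 263 of 16834 probes were called in this fit. In cDC1s the 3 genes differed by 1.36 (SE 0.37), 1.64 (SE 0.46) and 1.22 (SE 0.35), and nothing is read from calls there. In monocytes *Retnlb* had a difference of 0.95 (SE 0.24, limma adjusted p = 0.0385) and *Muc2* one of -0.61 (SE 0.14, limma adjusted p = 0.0228), both under the minimum log2 difference of 1. With the listing block in the fit as well, *Reg3b* differed by 1.19 (SE 0.26, limma adjusted p = 0.0184) in monocytes and 1.16 (SE 0.25, adjusted p = 0.0154) in macrophages, and *Muc2* in monocytes by -0.51 (SE 0.13, adjusted p = 0.0493). These alternatives were added after the values were seen.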

How the data were processed

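RNA of sorted cells was hybridised to Illumina MouseWG-6 BeadChips, with 1 to several mice per array by the study's record. The authors deposited probe intensity, not normalised, with a p-value of detection beside each intensity, on 27 arrays used here; 3 further signal columns that match no sample were not used. The labels name lumi and limma; normalisation, background correction and software versions used by the study are not given in the sources used here. Intensities were corrected by normexp (offset 16, background from 936 negative control probes), quantile normalised over the 25 colon arrays (27 for levels that include T cells) and log2 transformed, in R 4.3.3 with limma 3.58.1 and data.table (version 1.17.8). A probe was tested in a comparison if it was detected (p-value below 0.05) on a number of arrays no smaller than that of the genotype with fewer arrays.

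Genotypes were compared by limma in 1 model of the 6 colon groups, with Benjamini-Hochberg adjustment within each comparison. The member genes, gene lists and marker lists were chosen with earlier results of these data known. All 10 members were named, by their brightest probe. Other epithelial genes were named when called, and the gene most like each member was chosen by Pearson's r. Of the 10 members, 9 matched RefSeq by accession (*Muc2* did not), and no promoter was used here for *Retnlb*, *Krt19* and *Tff3*. *Lgals4*, *Reg3b* and *Muc2* have 2 probes each, and the second *Muc2* probe was detected on 0 of 25 arrays and not tested. Alternatives were other thresholds, background, offset, scaling, filters, array weights, separate fits, the listing order as a block, the other probe, a structural covariate, both together, a pairing of arrays, and leaving out each array. The fit was tested on simulated data. The number of arrays limits the precision. P-values weigh a difference against the spread between arrays, which could hold pooled mice, and not against the spread between single mice.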

Additional observations from a re-analysis of the deposited data

Results flagged for a closer look

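In *Mbd2*-/- macrophages, the *Pigr* level of 6.13 (log2) on array 17 lay far below the 4 other arrays, which read 7.19 to 7.60. It was the only such array among 40 gene and group combinations tested by Dixon's criterion, and chance marks about 1 in 20.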

How the results depend on the processing

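Directions of *Reg3b*, *Reg3g* and *Retnlb* held under each alternative run in monocytes, macrophages and cDC1s, and their calls did not. With 2, 3 and 2 of the 10 genes called in monocytes, macrophages and cDC1s (*Gcg*, chosen on its cDC1 difference, included), an adjusted p below 0.01 left 1, 0 and 0, median scaling 0, 0 and 0, no filter 1, 2 and 0, separate fits 3, 0 and 0, array weights 3, 3 and 0, and the other probe 1, 2 and 2. In cDC1s no background correction and cyclic loess each left 1, the stricter filter 3 and the covariate 4. With the covariate 389 of 17838 probes were called in cDC1s, and nothing is read from the cDC1 counts. With the listing order as a block 4 genes were called in macrophages, and cDC1s could not be fitted with it. Of the other epithelial genes, 2 calls became 1 under the adjusted p below 0.01, no background correction, median scaling, no filter, separate fits and array weights, and 7 with the covariate. An offset of 50 and cyclic loess left 2, without *Pyy*. Leaving out 1 array gave 1 to 2 called members in monocytes, 2 to 3 in macrophages, 1 to 2 in cDC1s and 0 to 0 for the difference between macrophages and monocytes.

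Small differences reversed. Under median scaling *Krt8* was -0.18 and *Krt19* -0.018 in monocytes and the macrophage minus monocyte difference of *Reg3b* 0.058. *Tff3* in macrophages was 0.0067 under cyclic loess, 0.16 under array weights and 0.0086 under the block, and 0.14 in monocytes under the block. Macrophage minus monocyte differences under the block were -0.0079 (*Lgals4*), -0.13 (*Tff3*) and -0.040 (*Gcg*), and under the covariate -0.011 (*Lgals4*) and -0.0078 (*Tff3*), where *Krt8* in monocytes was -0.047. With block and covariate together, *Krt8* in monocytes was -0.11, and the macrophage minus monocyte differences were -0.0013 (*Lgals4*), -0.12 (*Tff3*) and -0.037 (*Gcg*). Leaving out 1 array reversed some: in monocytes *Tff3* -0.29 to 0.13, *Krt8* -0.028 to 0.22, for macrophages minus monocytes *Lgals4* -0.17 to 0.23, *Krt19* -0.13 to 0.53, *Tff3* -0.19 to 0.29, *Reg3b* -0.29 to 0.11, *Reg3g* -0.19 to 0.38, *Gcg* -0.14 to 0.48, in macrophages *Tff3* -0.27 to 0.22, *Muc2* -0.029 to 0.28, *Gcg* -0.50 to 0.12. The cause was not tested. Median scaling moved the median difference of all probes to -0.26, -0.07 and -0.37 in the 3 sorts. The labels share no replicate numbers between groups. Monocyte array n and macrophage array n + 10 were paired after the values were seen: over 16127 probes, deviations from group means correlated at -0.029 to 0.47 in the 10 pairs, and 6 of 10 monocyte arrays were most like their own pair, a hint from the data and not the design. With this replicate block 0 of the 10 genes were called for the difference between macrophages and monocytes, as without it. The number of arrays and the signal over background of *Gcg* and *Pigr* limit what could be seen.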
